A study of Mus musculus with 12 samples.

Results

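Tnf and 4 further ligand genes of the TNF superfamily, Tnfsf9, Tnfsf10, Tnfsf15 and Tnfsf13b, were followed by gene symbol, 5 of the 24062 gene entries of a normalised RNA-seq count table from mouse macrophages. All 5 were tested, since each exceeded 10 normalised counts in at least 3 of 12 libraries, and each also did so when the CMA libraries were set aside. TNF superfamily ligands are trimeric membrane proteins, some of which are also released, that bind receptors of the TNF receptor superfamily and so feed NF-kappaB, MAP kinase or cell death pathways. Macrophages are a main source of TNF itself, whose messenger is induced quickly by microbial and nucleic acid sensing and carries AU-rich elements that shorten its life. STING is the adaptor that relays cytosolic DNA sensing to the kinases that activate IRF3 and NF-kappaB.

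The cells were primary bone marrow derived macrophages of wild-type C57Bl/6 mice, labelled as passage 1, in 4 groups of 3 libraries. The groups received C-178 together with CMA, CMA alone, C-178 alone, or no stimulation. CMA is an agonist of mouse STING, C-178 is a covalent STING inhibitor, and the treated cells were exposed for 2 h. No label ties a library to an animal or a culture, so the p-values measure the spread between these libraries, which may be technical. The labels' extraction text names embryonic fibroblasts, whereas the cell type label names macrophages. All 10 macrophage markers were present, with summed levels of 337688 to 487634 normalised counts over the 12 libraries. The 12 fibroblast markers summed to 819 to 2159 normalised counts with C-178 plus CMA, 1732 to 3079 with CMA, 1738 to 2013 with C-178 and 1382 to 1574 without stimulation. In each group 4 or 5 of these markers averaged above 100 normalised counts, while Lum was at 0 in 3 of the groups. Their part in the results was not tested, and in bulk RNA fewer cells of a type and less RNA per cell cannot be told apart. The libraries held 7.766 to 36.438 M reads with C-178 plus CMA, 7.126 to 7.826 M with CMA, 7.049 to 28.476 M with C-178 and 13.907 to 17.449 M without stimulation.

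Tnf, Tnfsf10 and Tnfsf15 are shown by the 250 bases before their RefSeq start (build GRCm38.p6), printed on the strand of the gene, because they had the highest levels with CMA. The capitals mark letters that match a searched motif: the TATA box TATAAA in Tnf, and the IRF core AANNGAAA, on either strand, in Tnfsf10 and Tnfsf15.
Tnf, chr17:35202008-35202257, minus strand: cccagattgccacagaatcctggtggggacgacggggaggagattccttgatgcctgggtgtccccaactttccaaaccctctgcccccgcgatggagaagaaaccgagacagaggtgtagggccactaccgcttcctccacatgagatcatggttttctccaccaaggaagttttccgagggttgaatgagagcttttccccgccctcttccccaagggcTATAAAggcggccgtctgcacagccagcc
Tnfsf10, chr3:27316827-27317076, plus strand: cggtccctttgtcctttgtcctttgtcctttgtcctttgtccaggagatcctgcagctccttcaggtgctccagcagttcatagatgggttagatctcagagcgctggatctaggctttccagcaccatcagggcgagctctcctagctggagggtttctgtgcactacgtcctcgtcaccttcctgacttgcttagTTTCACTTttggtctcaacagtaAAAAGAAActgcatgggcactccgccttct
Tnfsf15, chr4:63745060-63745309, minus strand: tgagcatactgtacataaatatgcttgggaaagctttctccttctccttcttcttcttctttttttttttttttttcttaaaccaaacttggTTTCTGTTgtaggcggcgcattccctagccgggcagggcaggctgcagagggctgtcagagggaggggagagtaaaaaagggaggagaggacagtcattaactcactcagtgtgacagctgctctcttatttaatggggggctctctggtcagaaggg
For Tnfsf13b, a 30-base stretch before the later of its 2 annotated starts is shown, because it holds the only match among these windows to the core of the interferon-stimulated response element (GAAA, any 2 bases, then GAAA), in capitals.
Tnfsf13b, chr8:10006603-10006632, plus strand: atcttacaaaaactGAAAGTGAAAtgcgga

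Counted from the annotated start, the TATA box of Tnf lay at -29 to -24, the IRF core matches of Tnfsf10 at -53 to -46 and -30 to -23, and that of Tnfsf15 at -158 to -151. The response element core of Tnfsf13b lay at -16 to -7 and overlapped IRF core matches at -20 to -13 and -14 to -7. In windows of the 250 bases before the start, on both strands, 2.98% of 32851 promoters held the response element core, 21.3% the IRF core and 12.4% the TATA box. The kappaB consensus, searched in a fixed form of 10 letters, was present in 7.25% of promoters. It had no match in the windows of Tnf, Tnfsf10, Tnfsf15 and Tnfsf13b. Other kappaB forms and bases further upstream were not searched, so sites there are not excluded. An AP-1 match, TGANTCA, was found at -127 to -121 of the later Tnfsf13b start, and 6.75% of promoters held one. These matches describe letters in a window, and binding was not tested.

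The 3′ untranslated region of Tnf held 8 copies of the AU-rich heptamer TATTTAT in 764 bases, 10.5 per kb, counted with overlaps in the GENCODE annotation. Its densest stretch, at bases 438 to 467 of that region, is shown because AU-rich elements of this kind are the known handle for decay of the Tnf messenger, with the 5 heptamers, some overlapping, in capitals.
Tnf, 3′ untranslated region: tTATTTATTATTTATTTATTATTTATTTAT
Tnfsf9 had 2 heptamers in 253 bases, Tnfsf10 had 3 in 3998, Tnfsf13b had 1 in 3631 and Tnfsf15 had 0 in 2505. Of 21020 coding genes with such a region, 27.6% held at least 1 heptamer and 0.852% at least 5.

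With CMA, all 5 ligand genes rose over unstimulated cells, from 4.17-fold for Tnfsf13b to 197-fold for Tnfsf15. Over all 11440 genes tested, 19.4% were called higher in this comparison (limma on log2(normalised count + 1), Benjamini-Hochberg adjusted p under 0.05). The 5 members were chosen with earlier results of these data known, so their number called is not a test against that share. The 3 CMA libraries lay above the 3 unstimulated ones for all 5 members, as they did for 31% of the genes tested. With C-178 plus CMA, Tnf, Tnfsf9 and Tnfsf15 fell below their CMA levels and kept on average 5.41% to 9.52% of the CMA rise in normalised counts. Tnfsf13b kept 48.0% of it, and Tnfsf10, whose difference from CMA did not pass the test, kept 67.6%.

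**Figure D1:**
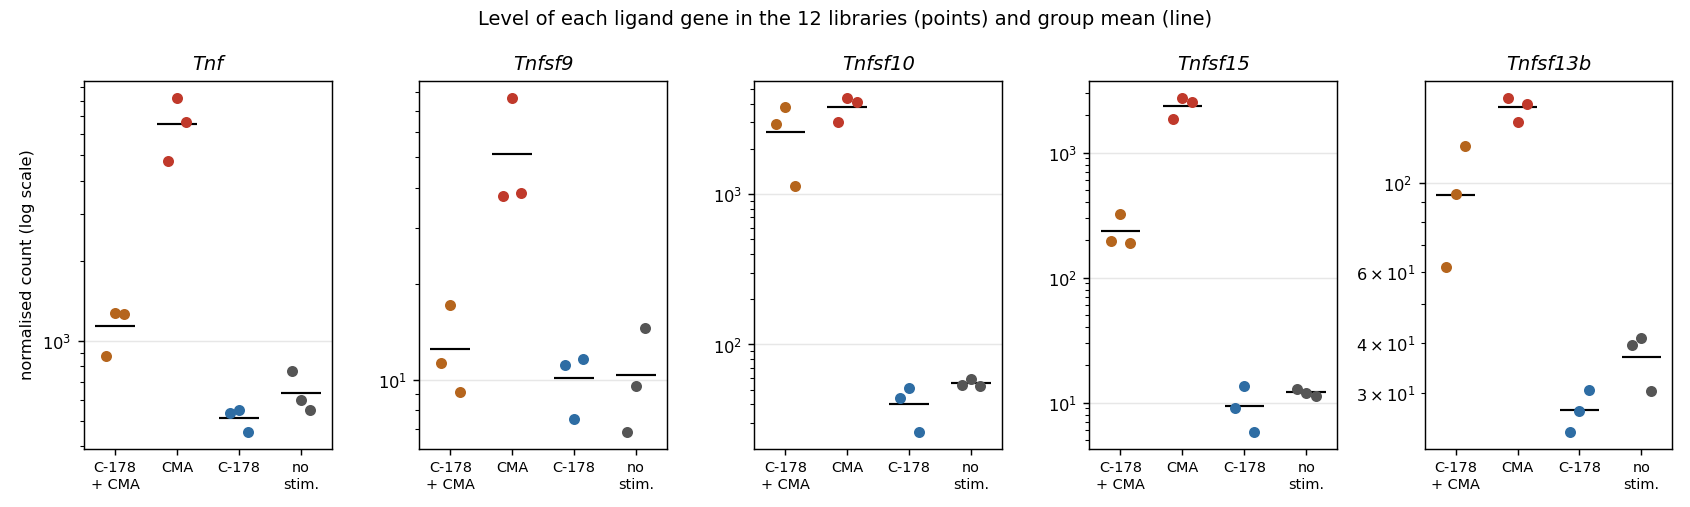
Normalised count (log scale) of the 5 ligand genes in each of the 12 libraries, with points for libraries and lines for the means of groups of 3. With CMA every gene sits above its unstimulated libraries, and C-178 plus CMA libraries sit far below the CMA ones for Tnf and Tnfsf15 while for Tnfsf10 library 2 lies within the CMA range, library 1 just below it and library 3 at 1128.

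Tnf encodes the founding member of the family, which signals through Tnfrsf1a and Tnfrsf1b. The gene lies at chr17:35199381-35202007 on the minus strand (GRCm38, GENCODE M21), between Ltb and Lta. It had 872, 1268 and 1256 normalised counts in the C-178 plus CMA libraries, 4762, 8209 and 6629.8 in the CMA libraries, 535, 549.6 and 453 in the C-178 libraries, and 769, 597 and 549 without stimulation. The CMA libraries stood above all others, the C-178 plus CMA libraries came next, and the C-178 and unstimulated libraries overlapped at their border. Means were 1132 ± 225 with C-178 plus CMA, 6533 ± 1726 with CMA, 513 ± 51.8 with C-178 and 638 ± 116 without stimulation (SD, n = 3 each). Against no stimulation, CMA raised Tnf 10.2-fold, a log2 change of 3.33 ± 0.21 (SE, limma adjusted p = 2.45e-08). The level with C-178 plus CMA was 5.77-fold lower than with CMA, a log2 change of -2.51 ± 0.21 (limma adjusted p = 7.66e-06).

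A smaller part of the Tnf rise remained. Its level with C-178 plus CMA was still 2.21-fold that with C-178 alone, a log2 change of 1.13 ± 0.21 (limma adjusted p = 0.00119). Against unstimulated cells the log2 change with C-178 plus CMA was 0.82 ± 0.21 (limma adjusted p = 0.0107). Without the unstimulated library b it was 0.72 with an adjusted p of 0.055.

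Tnfsf15 encodes TL1A, the ligand of Tnfrsf25, which costimulates lymphocytes. Its gene lies at chr4:63727084-63745113 on the minus strand. It had 198, 324 and 189 normalised counts with C-178 plus CMA, 1854, 2747 and 2531 with CMA, 8.96, 13.6 and 5.81 with C-178, and 12.9, 11.9 and 11.4 without stimulation. The C-178 plus CMA and CMA libraries did not overlap each other or the other 2 groups, which overlapped each other. From means of 2378 ± 466 with CMA and 12.1 ± 0.778 without stimulation (SD, n = 3 each), the rise was 197-fold, a log2 change of 7.49 ± 0.28 (limma adjusted p = 2.7e-10). The unstimulated mean rests on 55 reads over 3 libraries.

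Tnfsf15 averaged 237 ± 75.4 normalised counts with C-178 plus CMA, 10.02-fold below the CMA mean, with a log2 change of -3.34 ± 0.28 (limma adjusted p = 7.77e-06). Its level nonetheless stayed 25.1-fold above that with C-178 alone, 9.44 ± 3.89 (SD, n = 3), a log2 change of 4.54 ± 0.28 (limma adjusted p = 4.86e-08). On the same scale it was 4.14 ± 0.28 above no stimulation (limma adjusted p = 1.29e-07). 

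Tnfsf9 encodes the ligand of Tnfrsf9, a costimulatory receptor of T cells. It lies at chr17:57105325-57107757 on the plus strand and overlaps the annotated gene Gm11110. Its libraries had 11.3, 17.1 and 9.17 normalised counts with C-178 plus CMA, 37.9, 77.0 and 38.5 with CMA, 11.1, 7.53 and 11.6 with C-178, and 6.84, 9.55 and 14.6 without stimulation. The CMA libraries stood above the rest, and the other 3 groups overlapped. These levels rest on few reads, 52 with C-178 plus CMA, 83 with CMA, 44 with C-178 and 48 without stimulation. CMA raised the gene 4.96-fold, a log2 change of 2.18 ± 0.38 (limma adjusted p = 0.000377). C-178 plus CMA was 4.08-fold below CMA, a log2 change of -1.91 ± 0.38 (limma adjusted p = 0.00356). Against C-178 alone its log2 change was 0.26, with a 95% interval of -0.54 to 1.07 and a limma adjusted p of 0.632, which does not show that the levels were alike.

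Tnfsf10 encodes TRAIL, a ligand that can trigger death of susceptible cells through the receptor Tnfrsf10b in mice. It lies at chr3:27317028-27342427 on the plus strand. Its libraries had 2914, 3785 and 1128 normalised counts with C-178 plus CMA, 3019, 4384 and 4089.5 with CMA, 43.7, 51.2 and 26.2 with C-178, and 54.0, 58.5 and 53.1 without stimulation. The C-178 plus CMA libraries 1 and 2 lay near the CMA range, with library 2 inside it, and library 3 lay far below. CMA raised the gene 69.4-fold, a log2 change of 6.07 ± 0.36 (limma adjusted p = 1.42e-08). C-178 plus CMA averaged 2609 ± 1355 and CMA averaged 3831 ± 718 (SD, n = 3 each), a log2 difference of -0.71 ± 0.36 with a 95% interval of -1.47 to 0.06 (limma adjusted p = 0.156). Without C-178 plus CMA library 3 the log2 difference was -0.19 (adjusted p = 0.603), and without library 2 it was -1.06 (adjusted p = 0.0254). Against C-178 alone, C-178 plus CMA was 64.6-fold higher, a log2 change of 5.86 ± 0.36 (limma adjusted p = 4.86e-08).

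Tnfsf13b encodes BAFF, a survival factor for B cells. It lies at chr8:10006467-10039072 on the plus strand and overlaps the annotated gene Gm44789. Its libraries had 62.0, 94.2 and 124 normalised counts with C-178 plus CMA, 163, 142 and 158 with CMA, 24.0, 27.1 and 30.5 with C-178, and 39.5, 41.2 and 30.4 without stimulation. The C-178 plus CMA group was the most spread and lay between the CMA libraries and the other groups. CMA raised the gene 4.17-fold, a log2 change of 2.04 ± 0.24 (limma adjusted p = 1.16e-05). C-178 plus CMA averaged 93.3 ± 30.9 and CMA 154 ± 11.0 (SD, n = 3 each), a log2 change of -0.77 ± 0.24 (limma adjusted p = 0.0326). This call was lost when CMA library 1, 2 or 3 or C-178 plus CMA library 1 was left out, with a log2 change between -1.002 and -0.51 over all single libraries left out. Against C-178 alone the gene was 3.43-fold higher with C-178 plus CMA, a log2 change of 1.69 ± 0.24 (limma adjusted p = 0.000139).

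Counted over the members, 4 of 5 were lower with C-178 plus CMA than with CMA, where 13.5% of the genes tested were called lower. Leaving out 1 library gave 3 to 5 members and 747 to 2532 genes called lower, against 1543 with all 12 libraries, with 747 without CMA library 2, 835 without CMA library 3 and 2532 without C-178 plus CMA library 2. The same 4, all but Tnfsf10, lay below the CMA libraries without overlap, and 18.5% of genes did so. Against C-178 alone 4 of 5 were higher with C-178 plus CMA, all but Tnfsf9, and 13.5% of genes were called higher. Against no stimulation 4 of 5 were higher with C-178 plus CMA, again all but Tnfsf9, with 11.1% of genes called higher. These comparisons share libraries and are not independent of each other.

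**Figure D2:**
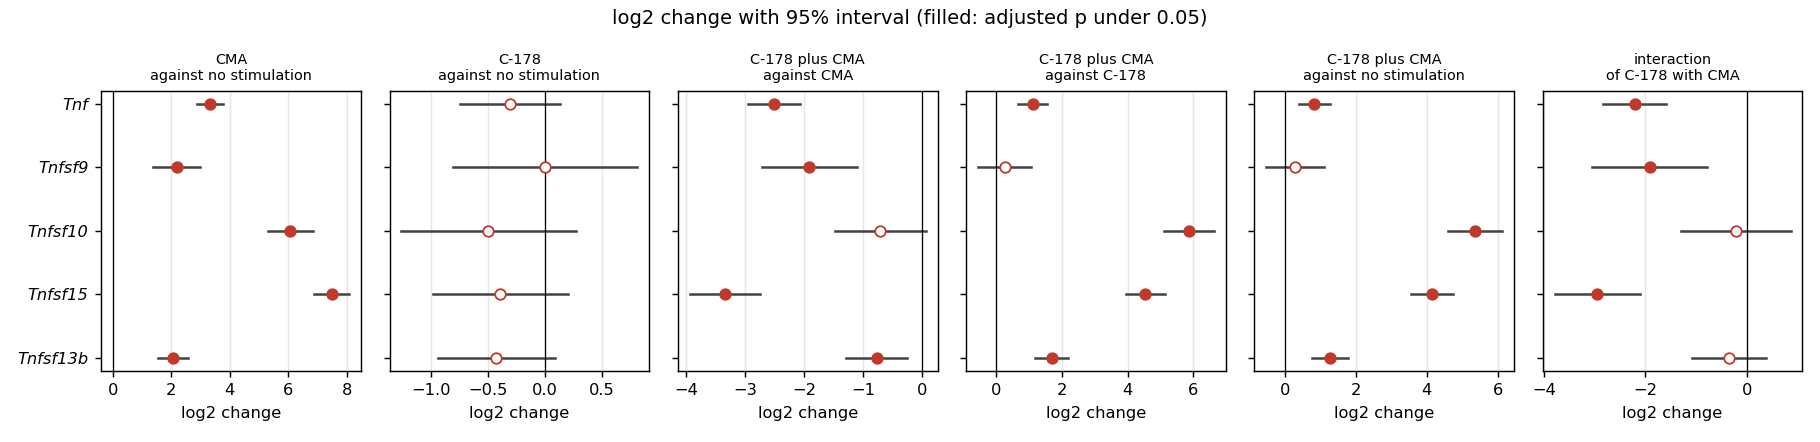
Log2 change of the 5 ligand genes with its 95% interval in 6 comparisons, 1 panel each with its own scale; filled points passed an adjusted p of 0.05. All 5 changes with CMA lie above 0, while for C-178 plus CMA against CMA the interval of Tnfsf10, -1.47 to 0.06, includes 0.

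C-178 alone was not followed by a called change in any ligand gene. The log2 changes against no stimulation were -0.31 for Tnf, 0.01 for Tnfsf9, -0.49 for Tnfsf10, -0.39 for Tnfsf15 and -0.43 for Tnfsf13b, each with a limma adjusted p of 1. No member reached an unadjusted p under 0.05 in limma (0 of 5), and edgeR and DESeq2 on recovered reads called 0 of 5. Over all genes tested, limma called 0.0962% higher and 0% lower. At an unadjusted p under 0.05, limma gave 238 genes higher and 182 lower, and the calls lower were 1 with edgeR and 4 with DESeq2. The Tnfsf10 libraries with C-178, 26.2 to 51.2, lay just below those without stimulation, 53.1 to 58.5, as did 7.68% of genes, while 7.87% lay above without overlap and no member was among them (0 of 5).

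The part of the CMA rise in normalised counts that remained with C-178 differed among the ligand genes, taking the mean of the unstimulated libraries as 0 and that of the CMA libraries as 100%. C-178 plus CMA libraries 1, 2 and 3 kept 3.97%, 10.7% and 10.5% of the rise of Tnf, and 7.86%, 13.2% and 7.499% of that of Tnfsf15. For Tnfsf9 they kept 2.34%, 16.7% and -2.81%. In normalised counts, the range for these 3 genes did not reach the lowest value of the other members. This grouping depends on the scale. As log2 changes over no stimulation, Tnfsf15 stood at 4.14 with C-178 plus CMA and at 7.49 with CMA. On that scale Tnf stood at 0.82 and 3.33, Tnfsf9 at 0.27 and 2.18, Tnfsf13b at 1.27 and 2.04, and Tnfsf10 at 5.37 and 6.07.

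Tnfsf13b kept 21.3%, 48.8% and 73.9% in libraries 1, 2 and 3, a mean of 48.0%. Tnfsf10 kept 75.7%, 98.8% and 28.4%, a mean of 67.6%. Library 3 was thus the lowest of the group for Tnfsf10 and the highest for Tnfsf13b. The C-178 plus CMA libraries also differed most from each other over all genes, with a chi-square per gene of 68.04 to 114.5 between them, against 2.351 to 9.185 between CMA libraries and 7.212 to 26.6 between C-178 libraries, a measure that also grows with depth. The 68.04 was between libraries 2 and 3, with 8.813 and 7.766 M reads. The 7.212 was between C-178 libraries 2 and 3, with 7.145 and 7.049 M reads. C-178 plus CMA library 3 had lower levels of some macrophage markers than libraries 1 and 2. Mrc1 had 1063 normalised counts there, against 2548 and 2702, Mertk 1745 against 3381 and 4982, and Emr1 47127 against 105268 and 72376. Other macrophage markers went the other way: Cd68 and Cd14 were highest in library 3, at 17329 and 3585 normalised counts. The part of these differences in the ligand results was not tested.

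**Figure D3:**
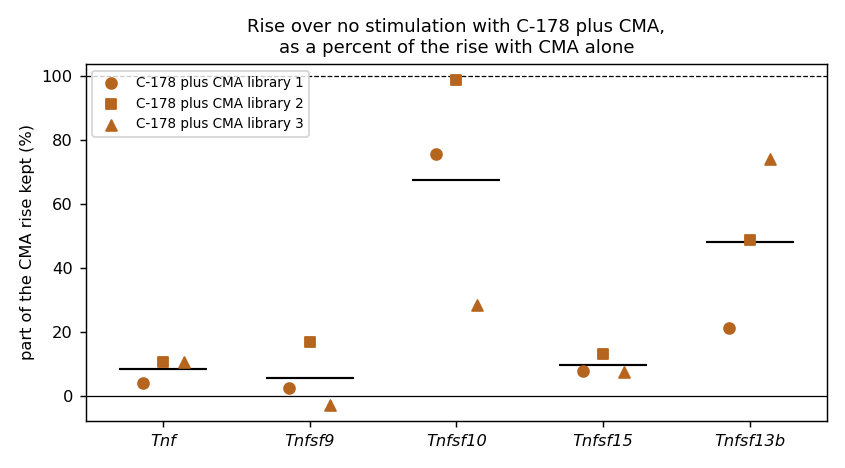
Rise in normalised counts over no stimulation with C-178 plus CMA as a percent of the mean rise with CMA alone, with 1 symbol per C-178 plus CMA library and a line for the mean. Tnf, Tnfsf9 and Tnfsf15 stay under 17%, while Tnfsf10 spans 28.4% to 98.8% and Tnfsf13b 21.3% to 73.9%.

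On the log scale, the interaction asks whether the CMA change with C-178 present, C-178 plus CMA minus C-178, differed from the CMA change without it, CMA minus no stimulation. It was -2.95 ± 0.39 for Tnfsf15 and -2.21 ± 0.29 for Tnf, each with a limma adjusted p of 0.00105, and -1.92 ± 0.53 for Tnfsf9 (adjusted p = 0.0389). Over all genes tested, 5.99% were called lower in the interaction and 3.95% higher, and 3 of 5 members were called lower. These shares depend on single libraries: leaving out 1 gave 209 to 2018 genes lower, against 685, and 122 to 1681 higher, against 452. Both counts rose most without C-178 plus CMA library 2, and both fell by over 1.5 times without any 1 of the unstimulated libraries, of C-178 libraries 2 and 3 and of CMA libraries 2 and 3. Without C-178 plus CMA library 1 the genes higher numbered 291. The Tnfsf9 call was lost in 9 of the 12 fits that left out a library, with values between -2.17 and -1.59. For Tnfsf10 the interaction was -0.21, with a 95% interval of -1.30 to 0.87 (limma adjusted p = 0.793), and without C-178 plus CMA library 3 it was 0.31. For Tnfsf13b it was -0.35, with a 95% interval of -1.07 to 0.38 (limma adjusted p = 0.49).

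Differences between members were also tested within libraries, as the log2 ratio of 2 genes in the C-178 plus CMA libraries minus that in the CMA libraries, for all 10 pairs. The ratio of Tnf to Tnfsf10 was -1.05 ± 1.05 with C-178 plus CMA and 0.75 ± 0.13 with CMA (SD, n = 3 each), and the groups did not overlap (exact permutation p = 0.1, adjusted 0.125). The ratio of Tnfsf10 to Tnfsf15 was 3.33 ± 0.68 with C-178 plus CMA and 0.69 ± 0.01 with CMA, also without overlap (exact permutation p = 0.1, adjusted 0.125). With 3 libraries against 3, 0.1 is the smallest two-sided p, so no pair could pass the threshold. Tnfsf10 and Tnfsf13b changed their ratio by 0.07, with overlapping groups (exact permutation p = 1), and Tnf and Tnfsf9 by -0.60, also overlapping (exact permutation p = 0.3). In every other pair the groups did not overlap. Among these, the ratio of Tnf to Tnfsf15 changed by 0.83 and that of Tnfsf9 to Tnfsf15 by 1.44 (exact permutation p = 0.1 each, adjusted 0.125).

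Per kb of exon, which allows levels of different genes to be set side by side, Tnf was the most abundant ligand in every group, at 691 with C-178 plus CMA, 3986 with CMA, 313 with C-178 and 389 without stimulation. With CMA, Tnfsf10 and Tnfsf15 reached 727 and 710.4 normalised counts per kb, and Tnfsf9 and Tnfsf13b 39.6 and 22.5. Tnfsf10 was at 495 and Tnfsf15 at 70.9 with C-178 plus CMA, so that the close levels of these genes with CMA were not kept.

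Of 13 further ligand genes of the superfamily, 5 were tested, and Tnfsf8, the ligand of CD30, was the only one called in these comparisons. Tnfsf8 lies beside Tnfsf15 on chromosome 4. It averaged 34.6 normalised counts with CMA and 4.46 without stimulation, a log2 change of 2.73 ± 0.36 (limma adjusted p = 3.27e-05), on 57 reads with CMA and 20 without stimulation. Tnfsf8 passed the filter only through groups given CMA, with at most 5.32 normalised counts without stimulation and 3.01 with C-178. Its being tested thus hung on its level with CMA. Tnfsf8 averaged 23.6 with C-178 plus CMA and its log2 change against CMA was -0.60 (limma adjusted p = 0.226). Ltb, which encodes lymphotoxin beta and lies beside Tnf, had log2 changes of -0.22 with CMA and -0.21 with C-178 plus CMA against CMA, with limma adjusted p of 0.541 and 0.578. Among 8 genes around Tnf on chromosome 17, 7 were tested, and with CMA 2 were called lower, where 17.9% of all genes tested were; these were Atp6v1g2 at -1.32 and Nfkbil1 at -1.01.

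Of the 28 receptor genes of the superfamily, 18 were tested, and with CMA 5 were called higher and 5 lower, around a median log2 change of -0.15 where the median of all genes tested was -0.01, with 19.4% of them called higher and 17.9% lower. Cd40, the receptor through which T cells license antigen-presenting cells, changed by 5.38 ± 0.30 on the log2 scale (SE, limma adjusted p = 9.01e-09), and Fas, a death receptor, by 2.32 ± 0.21 (limma adjusted p = 8.88e-07). The receptors of TNF moved apart: Tnfrsf1b changed by -1.12 ± 0.11 (limma adjusted p = 1.48e-06) and Tnfrsf1a by 0.50 ± 0.11. Tnfrsf11b, osteoprotegerin, which binds TRAIL as a decoy, changed by 1.99 ± 0.36, and Tnfrsf13b, a BAFF receptor, by -1.41 ± 0.24. Like Tnfsf8, Tnfrsf11b passed the filter only through groups given CMA, with a median of 7.17 normalised counts without stimulation and 9.03 with C-178. Tnfrsf10b, the TRAIL receptor, was not called, at 0.31. With C-178 plus CMA against CMA, 3 receptors were called higher and 3 lower, where 10.6% of all genes were higher and 13.5% lower, with Fas at -1.98 and Cd40 at -1.69 among the lower and Tnfrsf1b at 0.998 among the higher.

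Genes that carry or restrain TNF receptor signalling were tested in full, 27 of 27. With CMA 11 were called higher and 4 lower, beside 19.4% and 17.9% of all genes, with a median log2 change of 0.32. Tnfaip3, which encodes the ubiquitin-editing inhibitor A20, changed by 4.16 ± 0.22, Nfkbia, the NF-kappaB inhibitor, by 2.51 ± 0.14, and Cflar, an inhibitor of caspase-8 activation, by 2.76 ± 0.20. With C-178 plus CMA against CMA, 3 were called higher and 10 lower, beside 10.6% and 13.5% of all genes, with a median of -0.20, and Tnfaip3 changed by -3.35 ± 0.22 (limma adjusted p = 1.03e-06).

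Among 8 genes of TNF processing, 4 were called higher with CMA, beside 19.4% of all genes, and the other 4 were not called. Rhbdf2, a partner that escorts the shedding protease, changed by 1.73 ± 0.16, and Adam17, the protease that releases TNF from the membrane, by 0.49 ± 0.14 (limma adjusted p = 0.0113). With C-178 plus CMA against CMA, 3 were called lower, beside 13.5% of all genes, and the other 5 were not called, Adam17 being lower by a log2 change of -0.44 ± 0.14. Of 15 genes that control the decay and translation of TNF messenger, 6 were called higher and 4 lower with CMA, beside 19.4% and 17.9% of all genes. Zfp36, tristetraprolin, which binds AU-rich elements such as those of Tnf, changed by 1.64 ± 0.17, while Zfp36l1 and Zfp36l2, its relatives, changed by -2.24 ± 0.21 and -3.75 ± 0.19. With C-178 plus CMA against CMA, Zfp36 changed by -1.45 ± 0.17 and Zfp36l2 by 1.42 ± 0.19. Zfp36l1 was lower still with C-178 plus CMA, at 153, 273 and 279.6 normalised counts, against 493, 369 and 385 with CMA, a log2 change of -0.86 ± 0.21 (SE, limma adjusted p = 0.0101).

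**Figure D4:**
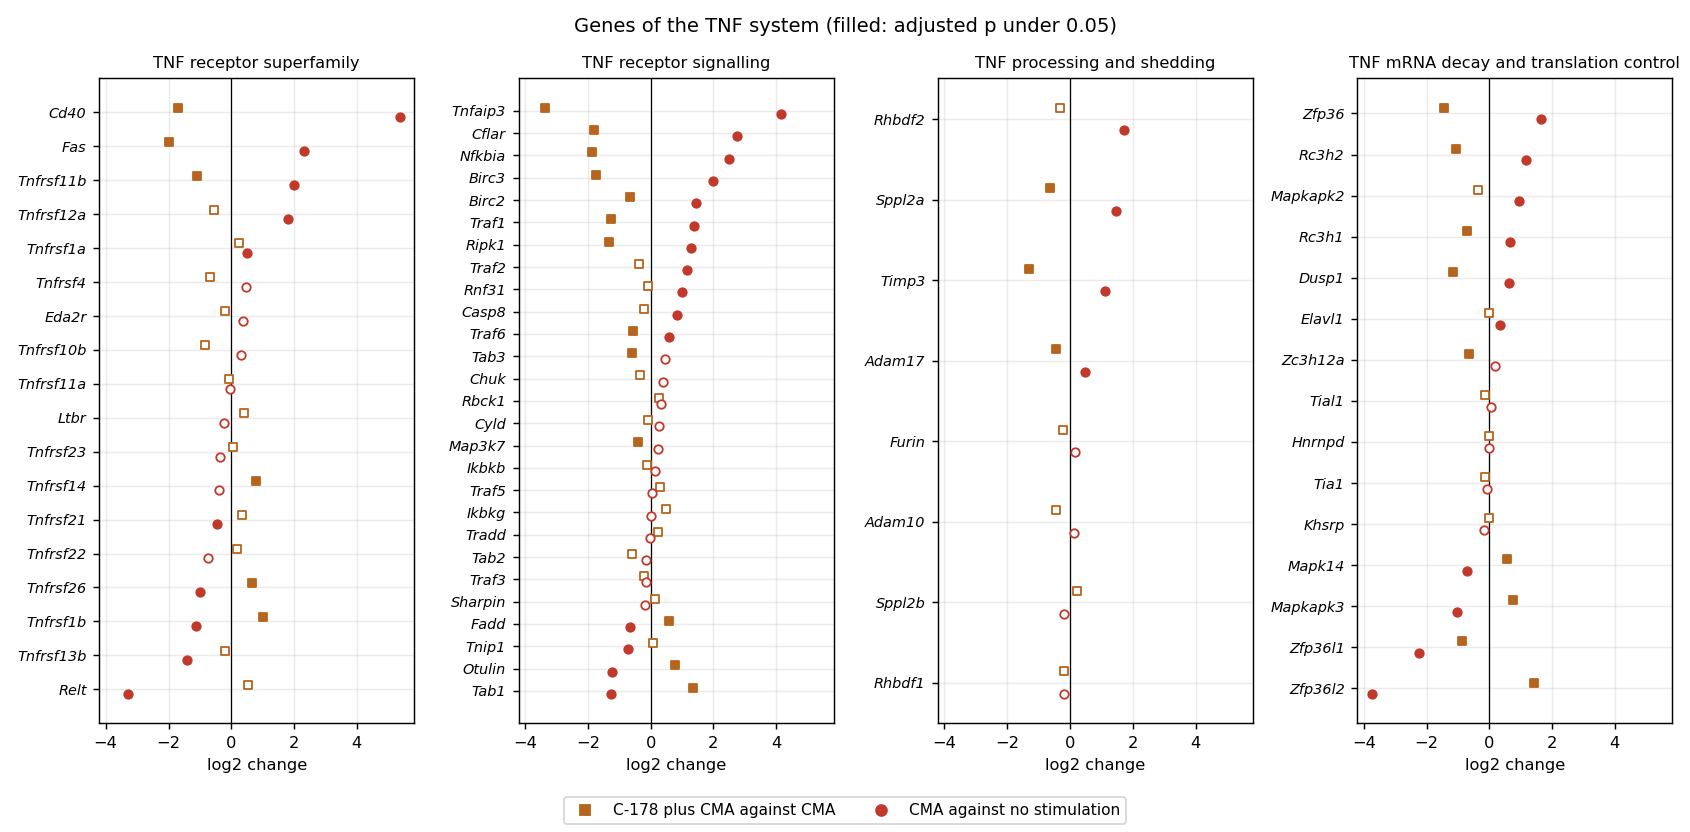
Log2 changes of receptor, signalling, processing and messenger-control genes of the TNF system, with C-178 plus CMA against CMA as squares and CMA against no stimulation as circles; filled symbols passed an adjusted p of 0.05. Cd40, Tnfaip3 and Zfp36 lie right of 0 with CMA and left of 0 with C-178 plus CMA against CMA, and Zfp36l2 the other way round; these comparisons share the CMA libraries.

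The genes with the most similar pattern over the 12 libraries were found among 8659 candidates by the root mean square difference of log2 levels after subtraction of each unstimulated mean. For Tnf they were Dusp2, Marcksl1, Hcar2, Atm and Cflar, at 0.33 for Dusp2. For Tnfsf10 they were Mx1, Mx2, Gm14446, Ifit1 and Gbp4, at 0.25 for Mx1. For Tnfsf15 they were Lhx2, Irg1, Heatr9, Nos2 and Iigp1, at 0.47 for Lhx2, so that its nearest neighbour was less near. For Tnfsf13b they were Epsti1, Rtp4, H2-Q4, Nmi and Rars, at 0.27 for Epsti1, and for Tnfsf9 Dr1, A630072M18Rik, Ddx19b, Gm6377 and Nxf1, at 0.31 for Dr1.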

How the data were processed

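RNA-seq of 12 macrophage libraries in 4 groups was available as a table deposited by the authors, whose values are a signal per gene: read counts divided by a factor per library. The scaling is not stated; a base mean and Cook's distances in the header are of the kind DESeq2 writes. Per the submitters' processing notes the build was mm10, and the tools named are Bowtie2 2.2.1 and limma 3.18.13, in steps not stated. The sources used here do not give the counter, annotation or strand setting, so reads of overlapping genes may be shared. The 12 Cook's distance columns were not used. Unstimulated libraries are called 1, a and b because 2 columns share a heading.

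Each column is whole multiples of its smallest step (100% of values, tolerance 0.01), which gave reads. Genes above 10 normalised counts in at least 3 libraries (11440) were fitted with limma 3.58.1 in R 4.3.3 on log2(value + 1) over all 12 libraries, eBayes with trend, Benjamini-Hochberg over all genes, calls at adjusted p under 0.05, and checked on simulated data. Fold changes of low genes are understated by the pseudocount, and ratios of means are printed as folds. edgeR 4.0.16 and DESeq2 1.42.0 on the recovered reads, other pseudocounts, filters, scalings, fits and left-out libraries were alternatives. Replicates differed by more than counting noise (chi-square per gene 2.35 to 114.5), so none was counted as a duplicate.

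Libraries of the same number in the C-178 and the C-178 plus CMA group deviated together (correlations 0.45, 0.43 and 0.26, each above 0.1), so the numbers were taken to pair these groups. This comes from the data, as no label says what a number marks. Libraries of different numbers could also correlate, as CMA library 1 and C-178 plus CMA library 3 did at 0.34. Library 1 was also the deepest of both paired groups, with 28.476 M reads for C-178 and 36.438 M for C-178 plus CMA. The part of depth in these correlations was not tested. The members and lists were chosen with earlier results of these data known. Of each list, up to 4 genes with the smallest adjusted p per comparison were named, plus fixed receptors and regulators, and 5 genes per member for likeness (highest group mean at least 100). Promoter sequences are from RefSeq (GRCm38.p6, 4 members matched) and 3′ untranslated regions from GENCODE M21. Tables and figures were made with matplotlib 3.10.9, numpy 2.4.6 and pandas 2.3.3 under Python 3.11.15.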

Additional observations from a re-analysis of the deposited data

Results flagged for a closer look

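The CMA change differed with and without C-178 for 3 ligand genes, by the interaction term of the limma fit. The difference of log2 changes was -2.21 for Tnf (adjusted p = 0.00105), -1.92 for Tnfsf9 (adjusted p = 0.0389) and -2.95 for Tnfsf15 (adjusted p = 0.00105). For Tnf and Tnfsf15 it stayed called under all 22 alternatives, and for Tnfsf9 under 10 of 21.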

How the results depend on the processing

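Of 709 alternative values for the 30 member results, 677 kept direction and side of the threshold, and 23 results did so under every alternative. Tnfsf9 with C-178 against no stimulation, 0.01, turned to -0.0049 with a pseudocount of 10, -0.0047 with edgeR, -0.0070 with DESeq2 and -0.35 with reads thinned to the shallowest library, and ranged from -0.23 to 0.26 with 1 library left out; with C-178 plus CMA against no stimulation, thinning gave -0.082. The Tnfsf10 interaction ranged from -0.57 to 0.31 and its C-178 plus CMA against CMA change from -1.06 to -0.19 with 1 library left out. Tnfsf13b with C-178 plus CMA against CMA stayed at -0.77 but lost its call with no filter (adjusted p = 0.0578), with the 2 groups alone (0.104) and in the treated groups alone without a block (0.0596); thinned reads gave -0.65 (0.0849), and leaving out 1 library gave -1.002 to -0.51 (limma adjusted p 0.00798 to 0.110). Tnf with C-178 plus CMA against no stimulation ranged from 0.72 to 0.997 (limma adjusted p 0.00387 to 0.0550). The Tnfsf9 interaction lost its call with no filter (-1.92, adjusted p = 0.0669) and thinning (-1.50, adjusted p = 0.124), and ranged from -2.17 to -1.59. The cause was not tested, and a filter above 50 dropped Tnfsf9.

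With the replicate number as a block, no member call changed between C-178 plus CMA and C-178 (Tnf 1.13, adjusted p = 0.00105). Over all genes, these 2 groups alone gave 1563 higher and 1460 lower with the block, and 738 and 600 without it. In the CMA and C-178 plus CMA groups, whose same-numbered libraries correlated at -0.14, 0.18 and -0.16, the 2 groups alone gave 284 genes higher and 747 lower with the block and 261 and 593 without it, against 1217 and 1543 with all 12 libraries and no block, so the drop came with the restriction to 2 groups. Tnfsf13b stayed at -0.77 in both (limma adjusted p = 0.102 with the block and 0.104 without), and in the treated groups together the block gave 987 and 1393, against 670 and 1028 without it. No paired analysis was possible because 2 unstimulated columns share a heading, for comparisons with no stimulation and the interaction. Quantile normalisation moved the median of all genes to -0.11 for CMA against no stimulation, and split the calls into 1953 higher and 2667 lower, against 2224 and 2047. With the 2 groups alone, genes called numbered 27 higher and 4 lower for C-178 against no stimulation (all 12 libraries 11 and 0), and, with C-178 plus CMA, 738 and 600 relative to C-178 (all 12 libraries 1548 and 1440), 809 and 722 relative to no stimulation (1265 and 1199), and 3075 lower for CMA (2047). DESeq2 called 34 higher for C-178, quantile normalisation 17. In the interaction 452 were higher, against 293 with no filter, 296 with no trend and 767 with DESeq2. Leaving out 1 library gave 122 to 1681 higher and 209 to 2018 lower there, 597 to 2179 and 747 to 2532 with C-178 plus CMA relative to CMA, 1056 to 2114 and 885 to 2067 relative to C-178, 889 to 1670 and 762 to 1672 relative to no stimulation, and 4 to 24 and 0 to 5 with C-178 relative to no stimulation.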

Other observations

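Several partner genes of the ligands stayed below the level needed for testing. Lta, which encodes lymphotoxin alpha and lies beside Tnf, averaged 5.85 normalised counts with C-178 plus CMA, 13.8 with CMA, 2.96 with C-178 and 1.76 without stimulation, on 19, 23, 6 and 8 reads. Tnfrsf25, the receptor of TL1A, had at most 4 reads in any library. Tnfrsf13c, a receptor of BAFF, had 0 reads in each of the 3 C-178 plus CMA and the 3 CMA libraries, which allows up to 3 reads in each, and 0 to 4 reads in each library of the other groups. Tnfrsf17, a further BAFF receptor, had at most 1 read in any library.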
